A study of Mus musculus with 4 samples.

Results

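The amino acid transporter families Slc1, Slc3, Slc6, Slc7, Slc36, Slc38 and Slc43 were followed in 2 mouse endometrial cancer cell lines. Members were chosen by name, as protein-coding genes whose symbol starts with one of these family names and a number, and Slc7a11 and Slc38a4 were left out by the rule. This gave 62 genes out of 22594 with a value. The rule by name also takes in genes that carry no amino acid, such as the serotonin transporter gene Slc6a4, and Slc7a6os, a separate gene beside Slc7a6 on the opposite strand.

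Libraries were made from total RNA of the lines MSH2KO21B and MECPK, 2 of each, called replicates 1 and 2. The labels give both as endometrial cancer lines with uterine cancer as the source, and state no treatment, no allele and not how either line was made, so the names serve only as labels. They are also silent on whether replicates were grown as separate cultures, and the p-values reflect just the scatter among these libraries, which may be technical. Of the epithelial markers, Krt7, Krt8, Krt18, Krt19 and Epcam were lower in MSH2KO21B and Cdh1 was higher, and the 6 summed to 345 and 333 TPM in MSH2KO21B against 5289.6 and 5233 TPM in MECPK. The basal markers Krt5, Krt14 and Trp63 ran the other way, with a sum of 7421 and 7348 TPM in MSH2KO21B against 3.05 and 2.69 TPM in MECPK. All 6 fibroblast markers and all 5 glial and neuronal markers were under 1 TPM in every library, as were 4 of 5 immune markers, and the endothelial markers summed to 2.75 and 1.80 TPM in MSH2KO21B and 0.06 and 0.03 TPM in MECPK.

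Amino acids cross membranes only through carriers, which differ in substrates and in what drives them. Uniporters follow the gradient of their substrate, symporters use sodium or protons to concentrate it, and exchangers trade one amino acid for another, so that growing cells combine concentrating carriers with exchangers. The light chains of the Slc7 family that exchange large neutral or cationic amino acids reach the cell surface only when bound to the glycoprotein heavy chain Slc3a2 or Slc3a1. Several of these genes are known targets of the transcription factor ATF4, which cells use when amino acids run short, and carriers on the lysosome report its amino acid content to the kinase complex mTORC1.

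Values are TPM, a relative abundance. They divide reads by transcript length and scale every library to the same sum, so that levels can be compared between genes but only as a share of a library. TPM keeps no depth, and the depth of the libraries is unknown. In bulk RNA, more cells that express a gene and more RNA per cell cannot be told apart. A gene was tested when it had at least 1 TPM in at least 2 libraries, and was called when its Benjamini-Hochberg adjusted p from limma was under 0.05. Differences are MSH2KO21B minus MECPK on the log2(TPM + 1) scale, which understates changes of genes with low values, and are given with the standard error. A fold is the ratio of the mean TPM values of the lines.

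Of the 62 members, 25 were tested, and 17 of these were higher in MSH2KO21B, 5 were lower and 3 were not called. The lines differed widely, so these counts stand against a high background: 76.2% of the 11921 genes tested were called, with 46.6% of them above and 29.7% below MECPK in the MSH2KO21B line. Among the tested members 88.0% were called, and 68.0% were called higher. Called differences over 1 on the log2 scale were found in 11 members that were higher, with 18.9% of all genes in that class, and in 1 that was lower, Slc7a4, with 11.4% of all genes. Of the 11, Slc43a2 (0.997) and Slc6a8 (0.984) fell under 1 when only transcript models with a complete coding sequence were summed. The 2 libraries of one line lay outside the range of the other for 24 of the 25 tested members and for 88.9% of all genes tested. The median difference of the tested members was 0.54, against 0.19 over all genes tested. Slc1a3, Slc6a4, Slc43a1 and Slc43a3 passed the filter only through MSH2KO21B and so had to differ, which means that the counts and medians of the tested members partly follow from the filter. The split also moves with the scaling. Quantile normalization brought the median of all genes to -0.03 and gave 14 members higher and 8 lower, and median-ratio scaling brought it to 0.01 and gave 15 and 6.

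**Figure D1:**
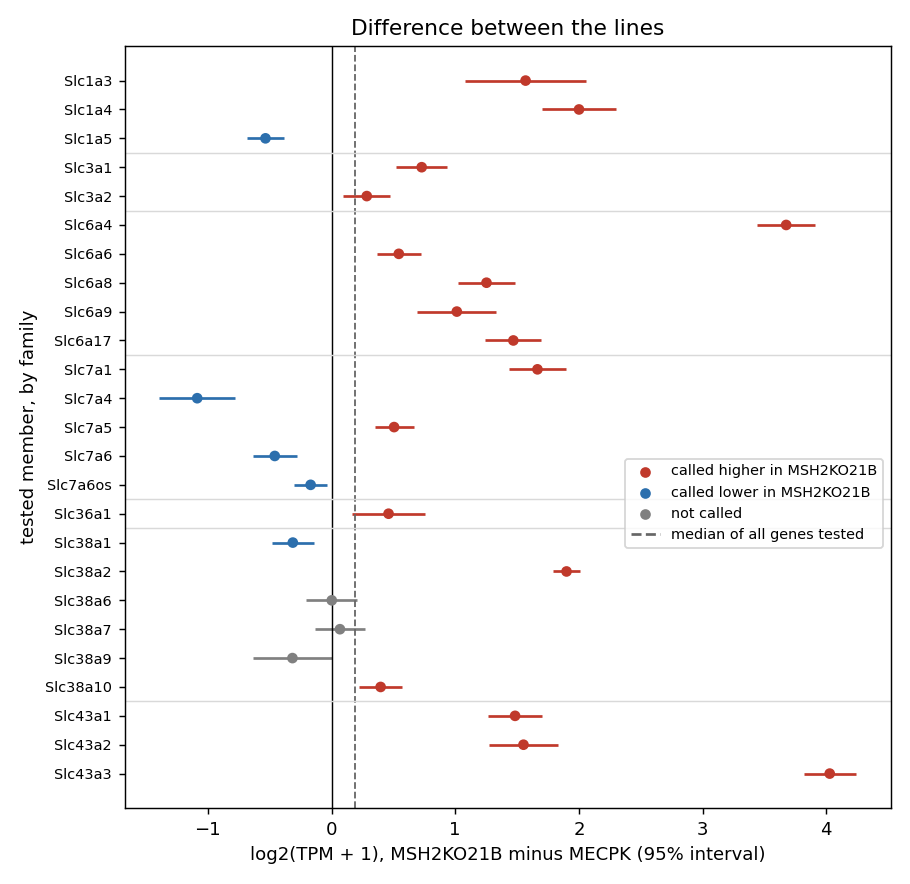
Difference between the lines for the 25 tested members, on the log2(TPM + 1) scale as MSH2KO21B minus MECPK, with 95% intervals from limma; rows are grouped by family and the dashed line marks the median of all genes tested, 0.19. Slc43a3 at 4.03 and Slc6a4 at 3.68 lie farthest to the right and Slc7a4 at -1.09 farthest to the left, and the 3 members in grey belong to the Slc38 family.

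The summed level of the members without Slc7a6os was 1274 and 1270 TPM in MSH2KO21B, against 794 and 805 TPM in MECPK. A few genes made up most of it in both lines. The 5 highest members held 69.4% and 70.7% of the sum in MSH2KO21B and 72.9% and 71.9% in MECPK. In MSH2KO21B the order began with Slc38a2 and Slc3a2, whose libraries overlapped, followed by Slc7a1, Slc7a6 and Slc7a5, and Slc7a5 overlapped Slc6a6 at rank 6. In MECPK it began with Slc3a2 and Slc7a6, followed by Slc38a2, Slc7a5 and Slc6a6, of which Slc7a5 and Slc6a6 overlapped. Slc7a1 thus stood at rank 3 in MSH2KO21B and rank 6 in MECPK, where its libraries overlapped those of Slc38a1.

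**Figure D2:**
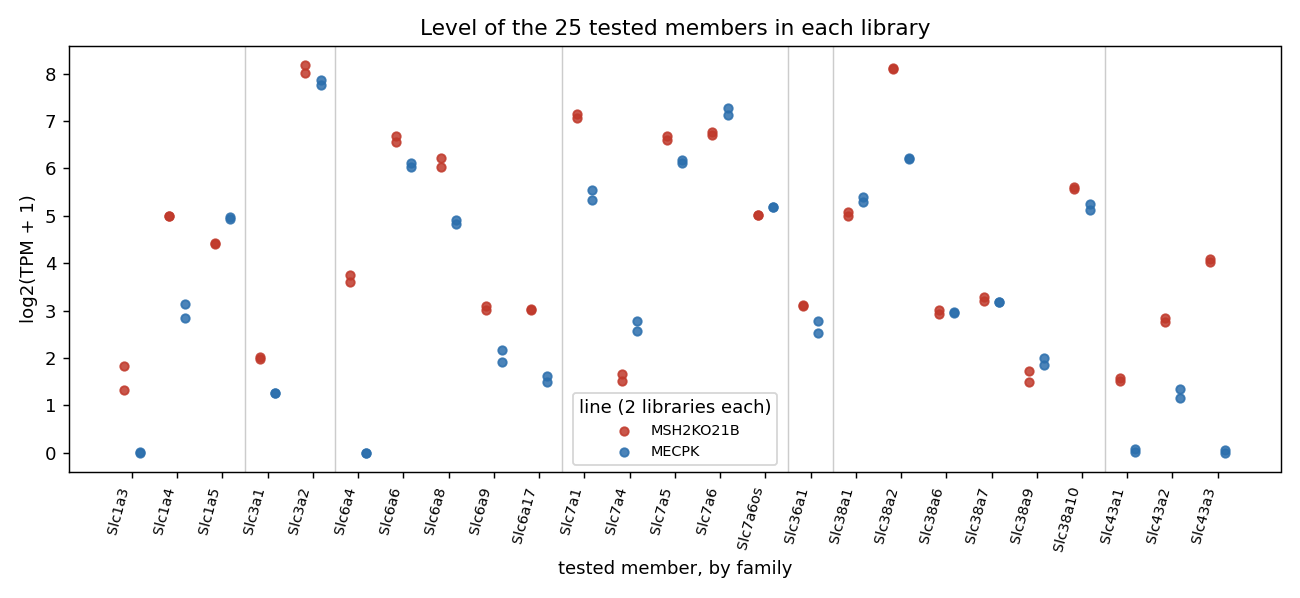
Level of each tested member on the log2(TPM + 1) scale in the 2 MSH2KO21B libraries (red, left) and the 2 MECPK libraries (blue, right) of each gene, with families set apart by grey lines. Slc38a2, Slc3a2 and Slc7a1 are the highest points in MSH2KO21B, and Slc1a3, Slc6a4, Slc43a1 and Slc43a3 lie at or near 0 in MECPK.

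The promoters of 5 members are shown before their values, because 4 of them hold one of the motifs that were searched and Slc38a2 carried the largest rise in TPM. They are RefSeq sequences of build GRCm38.p6 from 120 bases before to 30 bases after the annotated start, 5′ to 3′ on the strand of the gene, with motif matches in capitals. Slc1a4 lies on the minus strand at chr11:20332684-20332833, Slc38a2 on the minus strand at chr15:96699699-96699848, Slc43a1 on the plus strand at chr2:84840203-84840352, Slc36a1 on the plus strand at chr11:55204220-55204369 and Slc38a7 on the minus strand at chr8:95853462-95853611.
Slc1a4: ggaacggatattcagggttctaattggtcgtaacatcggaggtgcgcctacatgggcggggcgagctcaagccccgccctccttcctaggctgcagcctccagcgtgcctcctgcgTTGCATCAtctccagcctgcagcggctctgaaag
Slc38a2: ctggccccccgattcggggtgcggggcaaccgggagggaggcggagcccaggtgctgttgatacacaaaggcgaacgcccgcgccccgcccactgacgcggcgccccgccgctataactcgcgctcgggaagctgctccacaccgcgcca
Slc43a1: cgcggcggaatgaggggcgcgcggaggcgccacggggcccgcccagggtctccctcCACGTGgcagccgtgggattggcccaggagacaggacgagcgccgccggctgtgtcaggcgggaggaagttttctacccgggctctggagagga
Slc36a1: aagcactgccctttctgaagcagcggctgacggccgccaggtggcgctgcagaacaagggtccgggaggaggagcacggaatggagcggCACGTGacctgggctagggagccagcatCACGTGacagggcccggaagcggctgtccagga
Slc38a7: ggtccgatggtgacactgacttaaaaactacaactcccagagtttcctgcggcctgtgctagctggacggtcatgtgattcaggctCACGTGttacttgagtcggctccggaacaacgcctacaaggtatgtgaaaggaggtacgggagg

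The motifs were TGATGNAA, the core bound by C/EBP and ATF factors in amino acid response elements, and CACGTG, the E-box bound by the TFE3 and TFEB factors of the lysosome and by MYC. Both were searched on both strands of windows from 250 bases before to 50 bases after the start. The motifs can share bases, since TGATGNAA may start on the last bases of CACGTG, but no member held both. A window was at hand for 44 of the 62 members and for 18 of the 25 tested. TGATGNAA was found in 3 members and in 4.51% of all 27025 genes with a window. Slc1a4 was the only tested member with it, as the reverse complement that begins 4 bases before the start. CACGTG was found in 9 members and in 8.09% of all genes. Among tested members it was in Slc43a1, in Slc36a1 at 31 and at 3 bases before the start, and in Slc38a7. Slc43a1 and Slc36a1 were called higher in MSH2KO21B and Slc38a7 was not called. A match is a description of the letters and no evidence of binding, and the window of Slc38a2 holding neither motif says nothing about either factor.

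Exchangers of small neutral amino acids of the Slc1 family moved in opposite directions. Slc1a4, which encodes the exchanger ASCT1 for alanine, serine, cysteine and threonine, had 31.0 and 30.8 TPM in MSH2KO21B, against 7.79 and 6.22 TPM in MECPK. Slc1a5, which encodes ASCT2 and also exchanges glutamine, had 20.1 and 20.6 TPM in MSH2KO21B, against 29.6 and 30.2 TPM in MECPK. For both genes the libraries of the 2 lines lay well apart. Slc1a4 was 4.41-fold higher, a difference of 2.00 ± 0.11 (SE; limma adjusted p = 0.000146), and Slc1a5 was lower by a difference of -0.53 ± 0.06 (limma adjusted p = 0.00102). Slc1a4 accordingly made up 60.7% and 59.9% of the sum of the pair in MSH2KO21B and 20.8% and 17.1% in MECPK.

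The glutamate and aspartate carriers of the Slc1 family were low in both lines. Slc1a3, which encodes the sodium-driven carrier GLAST and is best known from glia, had 2.56 and 1.51 TPM in MSH2KO21B, against 0.00 and 0.02 TPM in MECPK. It was detected mainly in MSH2KO21B, with a difference of 1.57 ± 0.19 (SE; limma adjusted p = 0.00146), and the glial markers Gfap and Aqp4 stayed at or under 0.13 TPM in all libraries. The short model Slc1a3-208, with 387 coding bases, held 1.92 and 0.74 TPM of the Slc1a3 level in MSH2KO21B. The full model Slc1a3-201, with 1629 coding bases, had 0.64 and 0.77 TPM there, under the 1 TPM of the filter. Slc1a2, its relative in astrocytes, had 0.36 and 0.19 TPM in MSH2KO21B against 0.17 and 0.01 TPM in MECPK and was not tested. Slc1a1, Slc1a6 and Slc1a7 were under 0.2 TPM in every library.

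The heavy chain Slc3a2, also known as CD98 and one of the 2 most abundant members in both lines, differed little. Its level was 259 and 288 TPM in MSH2KO21B, against 231 and 217 TPM in MECPK. The libraries of the lines did not overlap, but the MSH2KO21B replicates were about as far from each other as the lower of them was from the higher MECPK library. The difference of 0.28 ± 0.07 was called (SE; limma adjusted p = 0.0191), but it was close to the median of all genes, and the adjusted p was 0.292 with median-ratio scaling and 0.0614 with quantile normalization. It was also lost without MSH2KO21B replicate 2 (limma adjusted p = 0.0961), without MECPK replicate 1 (0.0531) and without MECPK replicate 2 (0.0993). Slc3a1, the heavy chain of the cystine and dibasic amino acid carrier of kidney, was far lower, with 2.92 and 3.06 TPM in MSH2KO21B against 1.41 and 1.40 TPM in MECPK. It was called higher by 0.73 ± 0.08 (limma adjusted p = 0.00107), and the adjusted p was 0.0608 with quantile normalization. Its light chain partner Slc7a9 was at or under 0.04 TPM in every library.

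The members counted as light chains of Slc3a2 kept about the same sum but changed in make-up. Slc7a5, which encodes LAT1, the exchanger for leucine and other large neutral amino acids, had 102.4 and 95.9 TPM in MSH2KO21B, against 71.3 and 67.7 TPM in MECPK. Slc7a6, which encodes y+LAT2 and trades cationic for neutral amino acids with sodium, had 109 and 104 TPM in MSH2KO21B, against 139 and 154 TPM in MECPK. Each gene kept its lines apart, in opposite directions. Slc7a5 was higher by 0.51 ± 0.06 (SE; limma adjusted p = 0.0014) and Slc7a6 was lower, with a difference of -0.46 ± 0.07 (limma adjusted p = 0.003). Over all transcript models, the ratio of Slc7a5 to Slc7a6 was 0.943 and 0.924 in MSH2KO21B, against 0.511 and 0.441 in MECPK. The light chain members Slc7a5, Slc7a6, Slc7a7, Slc7a8 and Slc7a10 summed to 212 and 201 TPM in MSH2KO21B, against 213 and 222 TPM in MECPK. Slc7a11 was left out by the rule and is not in this sum, which is therefore a part of the light chains. The ratio of Slc3a2 to this sum was 1.22 and 1.43 in MSH2KO21B, against 1.08 and 0.977 in MECPK.

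The other light chain members contributed little to this sum. Slc7a7, the y+LAT1 gene of kidney and gut, had 0.37 and 0.94 TPM in MSH2KO21B, against 2.38 and 0.53 TPM in MECPK, and the lines overlapped. It was not tested, since MECPK replicate 1 alone reached 1 TPM. Slc7a8, which encodes LAT2, was at or under 0.14 TPM, and Slc7a10 was listed at 0 in every library. A transcript model of Slc7a6 that is annotated for nonsense-mediated decay, Slc7a6-203, held about as much as the full model, with 58.1 and 53.3 TPM in MSH2KO21B and 68.9 and 79.2 TPM in MECPK. The full model Slc7a6-201 alone had 47.4 and 46.1 TPM in MSH2KO21B, against 69.6 and 72.8 TPM in MECPK. Both models had lower values in MSH2KO21B, which was not tested model by model. The ratios, the light chain sum and the ranks of Slc7a6 given above count Slc7a6-203, which has 198 coding bases. Complete coding models include it as well. Beside Slc7a6-201 alone, Slc7a5 was higher in MSH2KO21B, at 102.4 and 95.9 TPM. In MECPK, Slc7a5 had 71.3 and 67.7 TPM, which overlapped Slc7a6-201.

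Slc7a6os, taken in by its symbol, had 31.3 and 31.2 TPM in MSH2KO21B, against 35.2 and 35.4 TPM in MECPK. The difference of -0.17 ± 0.05 was the smallest among the called members (SE; limma adjusted p = 0.0339). The call was lost when any of the libraries was left out, at limma adjusted p values of 0.12 and 0.127 without MSH2KO21B replicate 1 or 2 and 0.0593 and 0.065 without MECPK replicate 1 or 2, and also with a replicate block (0.0679) and without the mitochondrially encoded genes (0.0597). Whether the counting used the strand is not given in the sources used here, but the models of the genes do not overlap in the annotation.

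**Figure D3:**
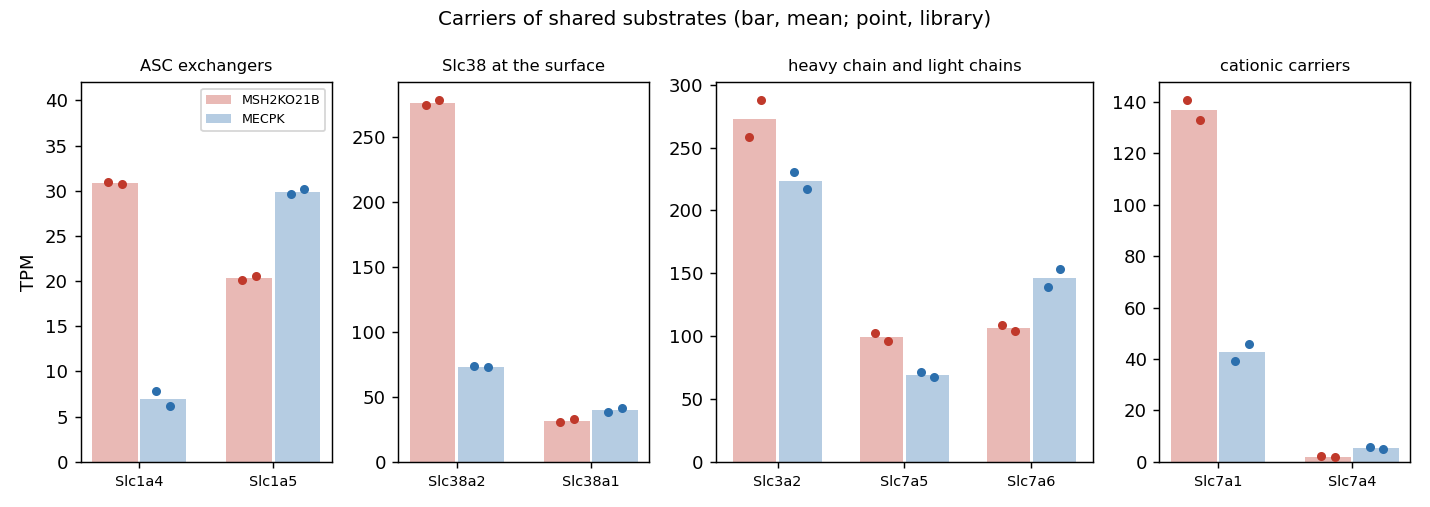
TPM of carriers grouped by family or partner, with bars for the mean and points for the libraries of MSH2KO21B (red, left) and MECPK (blue, right). No clear transport activity is known for Slc7a4, so it stands beside Slc7a1 by family only. Slc1a4, Slc38a2, Slc7a5 and Slc7a1 were higher in MSH2KO21B, and Slc1a5, Slc38a1, Slc7a6 and Slc7a4 beside them were lower.

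In the cationic carrier branch of the Slc7 family, Slc7a1, Slc7a2, Slc7a3, Slc7a4 and Slc7a14, most RNA came from Slc7a1. It encodes CAT1, the uniporter that brings arginine and lysine into most cells. Slc7a6, which also carries cationic amino acids, is not counted in this branch. Slc7a1 had 141 and 133 TPM in MSH2KO21B, against 39.4 and 45.7 TPM in MECPK. The lowest MSH2KO21B library was far above the highest MECPK library. The gene was 3.21-fold higher, with a difference of 1.66 ± 0.09 (SE; limma adjusted p = 0.000118). Slc7a4, a relative of the cationic carriers for which no clear transport activity is known, had 2.16 and 1.84 TPM in MSH2KO21B, against 5.84 and 4.92 TPM in MECPK. It was the only tested member called lower by over 1 on the log2 scale, at -1.09 ± 0.11 (limma adjusted p = 0.00102), and it was called but no longer past that size without MECPK replicate 1. Slc7a3, or CAT3, had 0.43 and 0.32 TPM in MSH2KO21B against 0.07 and 0.05 TPM in MECPK, and Slc7a2, or CAT2, was at or under 0.01 TPM. Slc7a1 held 98.2% and 98.4% of the summed TPM of this branch in MSH2KO21B and 87.0% and 90.2% in MECPK. This sum counts Slc7a4, which made up most of the rest in both lines.

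The Slc38 family, sodium-coupled carriers of glutamine and small neutral amino acids, gave the largest rise in TPM and also the 3 members that were not called. Slc38a2, which encodes SNAT2, a concentrating carrier at the cell surface and a known target of ATF4, had 274 and 278 TPM in MSH2KO21B, against 73.7 and 72.7 TPM in MECPK. Slc38a1, which encodes the related carrier SNAT1, had 30.9 and 32.6 TPM in MSH2KO21B, against 38.4 and 41.0 TPM in MECPK. The libraries of Slc38a2 were close together within a line and far apart between lines, while those of Slc38a1 were apart by a smaller margin, with MECPK above.

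Slc38a2 was 3.77-fold higher, with a difference of 1.90 ± 0.04 (SE; limma adjusted p = 1.31e-05). Slc38a1, its neighbour on chromosome 15, was lower, with a difference of -0.31 ± 0.06 (limma adjusted p = 0.01). The call for Slc38a1 was lost without MSH2KO21B replicate 1 (limma adjusted p = 0.082) and without MSH2KO21B replicate 2 (0.0539). Slc38a2 made up 89.9% and 89.5% of the sum of the pair in MSH2KO21B and 65.8% and 63.9% in MECPK. Slc38a10, a less studied member, had 47.5 and 46.0 TPM in MSH2KO21B, against 33.8 and 36.8 TPM in MECPK. It was called higher by 0.40 ± 0.07 (limma adjusted p = 0.00456), and the adjusted p was 0.0576 without MSH2KO21B replicate 1.

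Of the members tied to the lysosome, Slc36a1 was called higher in MSH2KO21B, and Slc38a7 and Slc38a9 were not called. Slc38a9, the lysosomal arginine sensor that acts on mTORC1, had 1.81 and 2.33 TPM in MSH2KO21B, against 2.63 and 2.99 TPM in MECPK. Both MSH2KO21B libraries were below both MECPK libraries, but the difference of -0.32 was not called (95% interval -0.63 to 0.00, limma adjusted p = 0.0661). It was called lower with quantile normalization (-0.83, limma adjusted p = 0.00413), with median-ratio scaling (-0.45, 0.021) and with a replicate block (0.0455). Slc38a7, which encodes the lysosomal glutamine exporter SNAT7, had 8.17 and 8.79 TPM in MSH2KO21B, against 8.03 and 8.05 TPM in MECPK. The difference of 0.07 was not called (95% interval -0.13 to 0.27, limma adjusted p = 0.453), and quantile normalization gave -0.26 (0.0312).

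Slc36a1, which encodes the proton-coupled carrier PAT1 of lysosomes and the cell surface, had 7.60 and 7.68 TPM in MSH2KO21B, against 4.74 and 5.85 TPM in MECPK. Its MECPK libraries differed more from each other than its MSH2KO21B libraries, and the lines did not overlap. It was called higher by 0.46 ± 0.11 (SE; limma adjusted p = 0.0168). The adjusted p was 0.369 with quantile normalization, 0.0553 with median-ratio scaling, 0.114 without MSH2KO21B replicate 1 and 0.12 without MSH2KO21B replicate 2. Slc36a4, a related carrier, had 1.03 and 0.61 TPM in MSH2KO21B, was listed at 0 in MECPK and was not tested, since a single library reached 1 TPM, and Slc36a2 and Slc36a3, neighbours of Slc36a1 on chromosome 11, stayed at or under 0.08 TPM.

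Slc38a6, whose substrate is less settled, had the same summed level in both lines, with 6.58 and 7.02 TPM in MSH2KO21B and 6.88 and 6.70 TPM in MECPK. It was the only tested member whose libraries overlapped between the lines, with a difference of 0.00 (95% interval -0.20 to 0.21, limma adjusted p = 0.984). It was called lower with quantile normalization (-0.35, limma adjusted p = 0.0144) and higher with complete coding models only (0.31, 0.0132). The equal sum came from different transcript models, which were looked at after its values were seen. The longest model, Slc38a6-206 with 1371 coding bases, had 1.67 and 1.81 TPM in MSH2KO21B, against 4.31 and 4.51 TPM in MECPK. The short models Slc38a6-208 and Slc38a6-202, with 375 and 210 coding bases, together held most of the TPM in MSH2KO21B, with 3.41 and 1.36 TPM for the one and 1.20 and 3.62 TPM for the other. In MECPK the first of these had 0.41 and 0.22 TPM and the other was listed at 0. Both short models count among the complete coding models. The replicates of MSH2KO21B split the reads between these 2 models in opposite ways, so their separate values carry a large error.

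Among members with at least 10 TPM in both lines, 11 in all, none changed its leading transcript model between the lines. The largest shift in the share of any model was 16.3 percentage points, for Slc6a8-202 of Slc6a8.

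Of the 21 members of the sodium- and chloride-driven Slc6 family 5 were tested, and all 5 were called higher in MSH2KO21B, as were 46.6% of all genes. Slc6a4, one of the 5, passed the filter only through MSH2KO21B. Slc6a6, which encodes the taurine transporter, had 101 and 92.8 TPM in MSH2KO21B, against 64.0 and 68.2 TPM in MECPK. Slc6a8, which encodes the creatine transporter and lies on the X chromosome, had 73.2 and 64.0 TPM in MSH2KO21B, against 27.2 and 29.0 TPM in MECPK. For both genes every MSH2KO21B library was above every MECPK library. Slc6a6 was 1.47-fold higher, a difference of 0.54 ± 0.07 (SE; limma adjusted p = 0.0017), and Slc6a8 was 2.44-fold higher, a difference of 1.25 ± 0.09 (limma adjusted p = 0.000255). Part of the Slc6a8 level came from Slc6a8-202, a model with 55 coding bases that held 16.7 and 10.3 TPM in MSH2KO21B and 1.72 and 0.00 TPM in MECPK. With complete coding models only, Slc6a8 had 55.9 and 53.5 TPM in MSH2KO21B, against 25.5 and 28.9 TPM in MECPK. Its difference was then 0.984 (limma adjusted p = 0.000171).

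Slc6a4, which encodes the serotonin transporter of neurons, platelets and gut epithelium, had 12.4 and 11.2 TPM in MSH2KO21B but was listed at 0 in the 2 MECPK libraries. It was called higher, with a difference of 3.68 ± 0.09 (SE; limma adjusted p = 1.55e-05), and no fold is given against values of 0. The neuronal markers Rbfox3 and Snap25 were at 0 in every library and Syp reached 0.04 TPM, and the noradrenaline and dopamine transporters Slc6a2 and Slc6a3 stayed at or under 0.07 TPM. Slc6a9, which encodes the glycine transporter GlyT1, had 7.02 and 7.59 TPM in MSH2KO21B, against 3.50 and 2.75 TPM in MECPK, and was called higher by 1.01 ± 0.12 (limma adjusted p = 0.00147). Slc6a17, a carrier of neutral amino acids in synaptic vesicles, had 7.10 and 7.18 TPM in MSH2KO21B, against 1.82 and 2.06 TPM in MECPK, and was called higher by 1.47 ± 0.08 (limma adjusted p = 0.000159).

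All 3 members of the Slc43 family were called higher in MSH2KO21B, as were 46.6% of all genes, but Slc43a1 and Slc43a3 passed the filter only through that line and had to be higher. The family sum was 23.5 and 23.5 TPM in MSH2KO21B, against 1.29 and 1.61 TPM in MECPK. Slc43a2, which encodes LAT4, a uniporter of large neutral amino acids, had 5.79 and 6.19 TPM in MSH2KO21B, against 1.23 and 1.55 TPM in MECPK. It was 4.31-fold higher, a difference of 1.55 ± 0.10 (SE; limma adjusted p = 0.00024). The incomplete model Slc43a2-207, with 326 coding bases, held 2.76 and 3.06 TPM of this in MSH2KO21B and 0.16 and 0.53 TPM in MECPK. With complete coding models only, Slc43a2 had 3.03 and 3.13 TPM in MSH2KO21B, against 1.07 and 1.02 TPM in MECPK. The difference was then 0.997 (limma adjusted p = 0.000163). Slc43a1, which encodes the related uniporter LAT3, had 1.84 and 1.97 TPM in MSH2KO21B, against 0.02 and 0.06 TPM in MECPK, and was called higher by 1.48 ± 0.08 (limma adjusted p = 0.000137). Unlike LAT1, these carriers need no heavy chain.

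Slc43a3, which transports purine nucleobases and not amino acids, had 15.9 and 15.3 TPM in MSH2KO21B, against 0.04 and 0.00 TPM in MECPK. The difference was 4.03 ± 0.08 over all transcript models (SE; limma adjusted p = 1.04e-05). Most of this level came from Slc43a3-202, an incomplete model with 149 coding bases that held 12.7 and 11.7 TPM in MSH2KO21B. The complete model Slc43a3-201 had 3.15 and 3.18 TPM in MSH2KO21B, against 0.04 and 0.00 TPM in MECPK. With complete coding models only the difference of Slc43a3 was 2.03, below the 3.49 of Slc6a4. Slc43a1 and Slc43a3 are neighbours on chromosome 2. Both passed the filter only through MSH2KO21B, so their shared direction was set by the filter.

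The 37 members that were not tested were mostly near or at 0, and Slc7a7 and Slc36a4 reached 1 TPM in a single library each. In all 4 libraries 13 were listed at 0, among them the GABA transporter gene Slc6a11, the glycine transporter gene Slc6a5 of neurons and Slc7a13. Another 18 had a value above 0 in some library but stayed under 0.2 TPM in all. The remaining 6 were Slc1a2, Slc7a3, Slc7a7 and Slc36a4, given above, with Slc38a3 and Slc6a12. Slc38a3, which encodes SNAT3 and exports glutamine in liver and brain, had 0.58 and 0.95 TPM in MSH2KO21B, against 0.02 and 0.00 TPM in MECPK. Slc6a12, the betaine transporter gene, had 0.47 and 0.23 TPM in MSH2KO21B and was listed at 0 in MECPK. Of the untested members 19 had the higher mean in MSH2KO21B and 5 in MECPK, at levels where a mean of 2 libraries carries little weight.

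**Figure D4:**
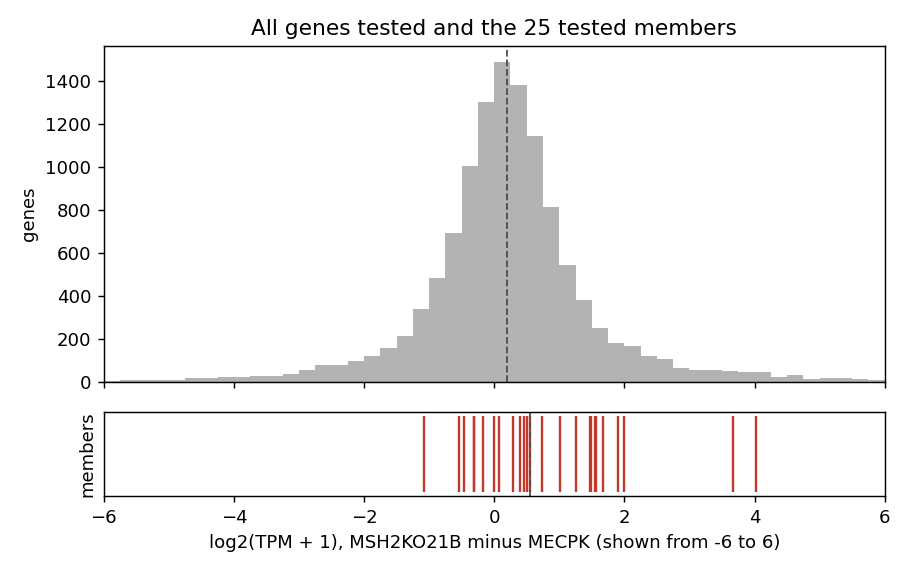
Histogram of the difference between the lines for all 11921 genes tested (top, number of genes) and 1 tick for each of the 25 tested members (bottom), on the log2(TPM + 1) scale as MSH2KO21B minus MECPK, shown from -6 to 6. The dashed line marks the median of all genes, 0.19, and the members lie between -1.09 and 4.03 with a median of 0.54, the line in the lower panel.

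Genes that sense, make and use amino acids were listed beside the carriers. The counts of each list stand against the 46.6% of all genes called higher and 29.7% called lower, and most of them move with the scaling. The list of the amino acid response holds Atf4, the kinase genes Eif2ak4 and Eif2ak3 that act upstream of it, and genes known to respond to it. Of 25 genes tested, 11 were higher in MSH2KO21B and 9 lower, and the median difference of 0.16 was next to the 0.19 of all genes. Quantile normalization gave 9 higher and 9 lower, and median-ratio scaling 7 and 10. Atf4 itself had 184 and 187 TPM in MSH2KO21B, against 236 and 192 TPM in MECPK, and was not called (difference -0.20 ± 0.11 SE, limma adjusted p = 0.16). MECPK replicate 1 stood apart from the other 3 libraries, and Atf4 was called lower with median-ratio scaling (limma adjusted p = 0.0356) and without MECPK replicate 2 (0.00913). Trib3, a pseudokinase gene induced by ATF4, had 7.83 and 7.24 TPM in MSH2KO21B, against 11.6 and 6.66 TPM in MECPK, where the replicates disagreed. It was not called (difference -0.20, limma adjusted p = 0.493), its sign turned without MECPK replicate 1 (0.15) and it was called lower without MECPK replicate 2 (-0.56, limma adjusted p = 0.0175). Asns, the asparagine synthetase gene, had 99.2 and 97.7 TPM in MSH2KO21B, against 72.2 and 69.2 TPM in MECPK, and was called higher by 0.47 ± 0.05 (limma adjusted p = 0.000919).

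The 4 largest called differences of that list were all higher in MSH2KO21B. They were the lipoprotein receptor gene Vldlr (2.42), the secreted glycoprotein gene Stc2 (2.24) and the transcription factor genes Atf5 (2.05) and Atf3 (1.84). Ddit4 came next, at -1.79. In that list 6 genes were called higher by over 1 and 3 lower by over 1. The 3 were Ddit4, Eif2ak4 (-1.28) and Eif4ebp1 (-1.21), named after their values were seen. Of the genes that carry amino acid signals to mTORC1, 30 of 31 were tested, and 18 were higher in MSH2KO21B and 4 lower, with a median of 0.37. Quantile normalization gave 13 higher and 7 lower, and median-ratio scaling 13 and 8. Large called differences were those of the GTPase gene Rragd (2.00), Sesn3 (-1.75) and Sesn1 (1.56), of which the sestrin genes Sesn1 and Sesn3 went in opposite directions. Rragd, with 3.08 and 3.21 TPM in MSH2KO21B against 0.05 and 0.03 TPM in MECPK, passed the filter only through MSH2KO21B, and Sesn3, with 0.47 and 0.58 TPM in MSH2KO21B against 3.70 and 4.62 TPM in MECPK, only through MECPK, so both had to differ. Rptor, the scaffold subunit of mTORC1, had 15.1 and 16.6 TPM in MSH2KO21B, against 21.7 and 24.2 TPM in MECPK, and was called lower (difference -0.51 ± 0.09 SE, limma adjusted p = 0.00578). Without MSH2KO21B replicate 1 the adjusted p of Rptor was 0.0663. Mtor, its kinase, had 7.58 and 8.27 TPM in MSH2KO21B, against 8.96 and 10.6 TPM in MECPK, and was not called (difference -0.27, limma adjusted p = 0.0747). It was called lower with quantile normalization (-0.58, limma adjusted p = 0.00493), with median-ratio scaling (-0.44, 0.0145) and without MECPK replicate 1 (0.0426).

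Enzymes of glutamine and glutamate showed the largest single difference among these lists. Glul, the enzyme that makes glutamine from glutamate, had 1.63 and 3.32 TPM in MSH2KO21B, against 77.8 and 89.4 TPM in MECPK, a difference of -4.65 ± 0.26 (SE; limma adjusted p = 0.000135). Its libraries were far apart between the lines, with both MSH2KO21B libraries at the low end. Oat, which links ornithine to glutamate, had 379 and 306 TPM in MSH2KO21B, against 101 and 106 TPM in MECPK (difference 1.71), and Gclc, the limiting enzyme of glutathione synthesis, differed by 1.24. Over the list, 7 of 18 tested genes were higher and 7 lower, with a median of 0.03. Quantile normalization gave 4 higher and 8 lower, and median-ratio scaling 4 and 9.

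Genes of branched-chain amino acid catabolism, whose substrates enter through LAT1, LAT3 and LAT4, had the highest median of the 8 lists, 1.05. Of 13 genes, all tested, 9 were higher in MSH2KO21B and 3 lower, beside 46.6% and 29.7% of all genes. One of the 9, Ppm1k, had 1.26 and 1.52 TPM in MSH2KO21B, against 0.46 and 0.64 TPM in MECPK. It passed the filter only through MSH2KO21B and so had to differ. Quantile normalization gave 8 higher and 4 lower, and median-ratio scaling 9 and 3. Bcat1, the cytosolic transaminase, had 12.8 and 13.5 TPM in MSH2KO21B, against 1.87 and 1.37 TPM in MECPK (difference 2.44 ± 0.12 SE, limma adjusted p = 0.000101). Bckdha and Dbt, subunits of the branched-chain ketoacid dehydrogenase, differed by 1.80 and 1.38, and Ivd, which acts on the leucine branch, was lower at -1.54. Dld and Bckdhb, named after their values were seen, were the other 2 genes called lower.

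**Figure D5:**
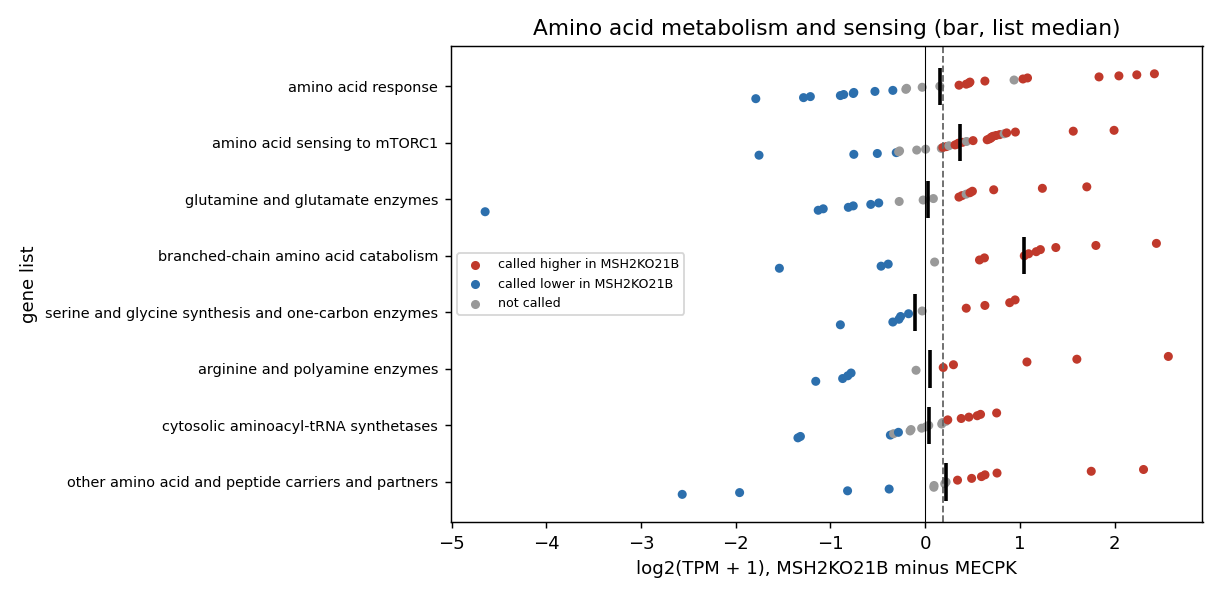
Difference between the lines on the log2(TPM + 1) scale, MSH2KO21B minus MECPK, for each tested gene of 8 lists of amino acid metabolism and sensing, with a black bar at the median of each list and a dashed line at the median of all genes, 0.19. Branched-chain amino acid catabolism has its bar at 1.05, and Glul at -4.65 is the point farthest to the left.

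The enzymes of arginine and polyamines differed by gene. Ass1, which makes argininosuccinate on the way to arginine, had 231 and 233 TPM in MSH2KO21B, against 35.9 and 40.8 TPM in MECPK, a difference of 2.57 ± 0.07 (SE; limma adjusted p = 2.38e-05). Odc1, which turns ornithine into putrescine, had 248 and 243 TPM in MSH2KO21B, against 529 and 566 TPM in MECPK, a difference of -1.16 ± 0.05 (limma adjusted p = 8.03e-05). Arg1 and the polyamine acetylase gene Sat1 were called higher, by 1.60 and 1.07, but Arg1, with 3.17 and 3.08 TPM in MSH2KO21B against 0.33 and 0.39 TPM in MECPK, passed the filter only through MSH2KO21B and had to differ. Over this list, 5 of 10 tested genes were higher and 4 lower, with a median of 0.05, and both scalings gave 3 higher and 5 lower.

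The list of serine, glycine and one-carbon enzymes had 4 of 10 tested genes higher and 5 lower, with a median of -0.10, and 3 and 5 with quantile normalization or 2 and 5 with median-ratio scaling. Psat1 of serine synthesis was lower (-0.90) and the next enzyme Psph was higher (0.63), with Amt (0.95) and Shmt1 (0.89) also higher. The call for Psph was lost with median-ratio scaling (limma adjusted p = 0.0836), without a filter (0.0523) and without MSH2KO21B replicate 1 (0.188), MSH2KO21B replicate 2 (0.0946) or MECPK replicate 2 (0.0869). Of 19 cytosolic aminoacyl-tRNA synthetases, which load amino acids onto tRNA, 6 were higher and 4 lower, with a median of 0.04. The majority turned with the scaling, to 5 higher and 7 lower with quantile normalization and 5 and 9 with median-ratio scaling. Iars (-1.34) and Vars (-1.32) for isoleucine and valine were lower, and Yars (0.75) and Hars (0.58) for tyrosine and histidine were higher.

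Among other amino acid and peptide carriers and their partners, 15 of 24 were tested, and 7 were higher in MSH2KO21B and 4 lower, with a median of 0.22. Quantile normalization gave 3 higher and 4 lower, and median-ratio scaling 5 and 4. Slc25a13, the mitochondrial aspartate and glutamate carrier citrin, had 1.09 and 1.10 TPM in MSH2KO21B, against 11.3 and 11.5 TPM in MECPK (difference -2.56 ± 0.08 SE, limma adjusted p = 2.48e-05). Slc16a10, the aromatic amino acid uniporter TAT1, had 0.07 and 0.12 TPM in MSH2KO21B, against 3.13 and 3.38 TPM in MECPK (difference -1.96), and passed the filter only through MECPK. The proton-coupled peptide transporter gene Slc15a2 had 3.71 and 4.25 TPM in MSH2KO21B, against 0.00 and 0.01 TPM in MECPK (difference 2.31), and passed only through MSH2KO21B, so both of these genes had to differ. Ctns, the lysosomal cystine exporter, was higher by 1.75.

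The libraries also differed in features other than these genes. Genes with at least 1 TPM numbered 11442 and 11478 in MSH2KO21B and 10822 and 10775 in MECPK, and mitochondrially encoded genes held 4.26% and 4.28% of TPM in MSH2KO21B and 1.92% and 2.61% in MECPK. Replicates correlated across genes with r = 0.996 in MSH2KO21B and 0.995 in MECPK, against 0.781 to 0.783 between lines, where genes are not independent replicates. The part of these features, and of the keratin difference, in the carrier differences was not tested. Without the mitochondrially encoded genes, 17 members were higher and 4 lower.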

How the data were processed

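RNA was measured in 4 libraries of 2 mouse lines, grouped by title. The authors deposited TPM per Ensembl transcript, made with kallisto 0.43.1 on GRCm38 per the submitters' processing notes. Not given in the sources used here were the transcript set, the strand setting and the depth. Of 61440 transcripts, 60503 matched a GENCODE M21 gene by identifier without version; the rest held 0.733% to 0.944% of TPM. Values were summed per gene, which gave 22594 genes. Of 3764 groups of transcripts that share a coding sequence, 99.4% had the same value within 0.1% in all libraries, so the deposited TPM act per coding sequence and cannot separate UTR isoforms. Kallisto shares reads by estimation, so values of single models are less certain than gene sums.

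The test was limma 3.58.1 (R 4.3.3), run on log2(TPM + 1) of genes that reached 1 TPM in 2 or more libraries, with a mean-variance trend and the line as the only term (2 residual and 2.49 prior degrees of freedom). p-values were adjusted by Benjamini-Hochberg over all 11921 genes, with a threshold of 0.05. The script was tested on simulated data. No library was a copy of another: 1 of 30991 transcripts above 0 in both MSH2KO21B libraries, and 0 of 28999 in both MECPK libraries, had identical values. Deviations of libraries with the same replicate number from their line means were nearly uncorrelated between the lines (correlation 0.0161). Whether libraries were prepared in pairs is not in the labels and cannot be read from this value.

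Members, gene lists and tests were chosen with earlier results of these data known. Values per library are given for members with at least 10 TPM in their higher line or a called difference over 2, and for tested members that were not called; others were named by role. From each list, up to 4 called genes with the largest differences were named, plus Atf4, Asns, Trib3, Glul, Mtor and Rptor. A few genes under these rules are not reported here. The 14 alternatives were another fit, scaling, filter or pseudocount, a replicate block, other transcript selections and each library left out; complete coding models were added after seeing the data. Promoters came from RefSeq, GRCm38.p6.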

Additional observations from a re-analysis of the deposited data

How the results depend on the processing

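Of the 25 tested members, 16 kept their direction and call in all of the 14 alternatives that tested them, among them Slc1a4, Slc1a5, Slc6a8, Slc7a1, Slc7a5, Slc7a6, Slc38a2 and Slc43a3, and 9 did not. Members called lower numbered 5, against 8 with quantile normalization. A filter of 10 TPM tested 14 members, of which 10 were higher, 6 of them by over 1, and 0 were lower by over 1; the lower counts follow from fewer genes tested. When each library was left out in turn, 3 to 4 members were called lower and 0 to 1 lower by over 1; the line with 1 library left is then assumed to vary like the other. The sign turned for Slc38a6 (0.00) to -0.35 with quantile normalization (called lower) and -0.16 with median-ratio scaling, with -0.039 to 0.042 across libraries left out. It turned for Slc38a7 (0.07) to -0.26 and -0.10 under these scalings, and Trib3 ranged from -0.56 to 0.15 across libraries left out. With complete coding models, which include the short Slc38a6-208 and Slc38a6-202, Slc38a6 was called higher (0.31, limma adjusted p = 0.0132). Its longest model, Slc38a6-206, went the other way, with 1.67 and 1.81 TPM in MSH2KO21B against 4.31 and 4.51 TPM in MECPK. Slc43a2 (0.997) and Slc6a8 (0.984) stayed called higher with these models but were no longer over 1. The replicate block gave 17 members higher and 5 lower, as without it; it called Slc38a9 and lost Slc7a6os. Without a filter, 49 members were tested, 24 higher and 6 lower. The share of all calls that were higher was 61.1%, against 48.1% with quantile normalization and 50.5% with median-ratio scaling, and among members 77.3%, 63.6% and 71.4%. The cause of these changes was not tested. Depth is unknown, so members listed at 0 may lie below what the sequencing could detect.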
